A study of Mus musculus with 8 samples.

Results

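The Hox genes are 39 homeobox transcription factor genes in 4 clusters, and they were taken here as all rows of the gene tables whose symbol is Hox, a cluster letter from a to d and a paralog number, with nothing after it. The rule found 39 of the 27998 gene rows in each of 2 single-cell RNA libraries of day 5, and all 39 symbols were in the gene name table. Both were made from E14 mouse embryonic stem cells with an EmGFP reporter at NKX2-5, a cardiac transcription factor gene. The line was grown on mitomycin C-treated mouse embryonic fibroblasts and differentiated in medium lacking leukemia inhibitory factor, as aggregates (embryoid bodies) started in hanging drops. One library is labelled wild type and the other Tet-triple knockout, called the WT and the TKO library below as labelled, with no treatment in either, and the study asked what losing the TET proteins, which oxidise 5-methylcytosine, does to differentiation toward the heart. The sources used here do not state how the knockout was made, whether the line was 1 clone or how many embryoid bodies were pooled. Another 6 samples, pull-downs of 5-hydroxymethylcytosine, were not analysed here.

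Hox proteins give cells of the embryo their position along the head-to-tail axis. Within a cluster the genes lie in the order of their paralog numbers, and low-numbered genes are switched on earlier and further forward than high-numbered ones. Low-numbered genes mark the hindbrain and heart-forming levels, where retinoic acid acts on them, while Cdx factors, Wnt and Fgf signals act on the middle and posterior genes of the trunk and tail. Silent clusters are held by Polycomb complexes, and Hox proteins bind DNA with Pbx and Meis cofactors.

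After the limit on mitochondrial share, 4392 WT cells with 37529180 UMIs (unique molecular identifiers, which count captured RNA molecules) and 3197 TKO cells with 33503021 UMIs were kept. The median cell had 7849.5 UMIs in the WT and 9679 in the TKO library. Levels are given as CPM, counts per 1e6 UMIs of all genes in the same cells, and the floor of 3 UMIs used for a count of 0 was worth 0.0799 and 0.0895 CPM. UMI counts are not scaled to gene length, so levels are compared between libraries and cells and not between genes. With 1 library per genotype no test between genotypes was possible, and all intervals are exact 95% intervals that cover counting error only. Doublets were not removed, and 21 barcodes occurred in both libraries. The RNA of Tet1, Tet2 and Tet3, the targeted genes, was counted in both libraries, at 12.3, 6.82 and 29.2 CPM in the WT and 22.8, 4.6 and 20.3 CPM in the TKO library. Counts over a whole gene can include RNA outside a deleted part, so they do not check the labels.

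RefSeq places the clusters on build GRCm38.p6, the mm10 build that the submitters' processing notes name. Hoxa2 to Hoxa13 of cluster a lie on chr6:52162417-52260880, cluster b on chr11:96194316-96368254, cluster c on chr15:102921131-103036856 and cluster d on chr2:74668225-74765142. Several members overlap other annotations, and the strand used in counting is not given in the sources used here. The Hoxa3 annotation spans Hoxa4, Hoxa5 and Hoxa6 and meets the antisense gene Hoxaas3, so reads of these genes could not be told apart where they overlap. The same holds for Hoxb3 with Hoxb4, Hoxd3 with Hoxd4, Hoxd10 with Hoxd11, and Hoxb5 and Hoxb6 with Hoxb5os.

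The 250 bases before the start site were read from RefSeq (GRCm38.p6) for 22 of the 39 members, and the 4 shown here stand for the patterns described below. Hoxa5 had the higher level in the TKO library, Hoxb4 was lower in the TKO library but near equal in lateral mesoderm-like cells as sorted below, and Hoxb8 and Hoxd9 were lower in the TKO library. Capitals mark CG dinucleotides, the sites at which cytosine can be methylated and then oxidised by TET proteins. The windows are chr6:52204588-52204837 on the minus strand, chr11:96318017-96318266, chr11:96281655-96281904 and chr2:74697513-74697762 on the plus strand, each printed 5′ to 3′ in the direction of the gene. The Hoxb8 window precedes a start site inside the annotated gene (chr11:96279401-96285325), not its outermost one, as do those of Hoxb1, Hoxc4 and Hoxd10. Hoxa10 and Hoxd11 have 2 windows each, and the one with the lower coordinates was counted. For Hoxa10, on the minus strand, this window also precedes an inner start site. It held 20 CG dinucleotides, and the one before the outermost start held 7.
Hoxa5: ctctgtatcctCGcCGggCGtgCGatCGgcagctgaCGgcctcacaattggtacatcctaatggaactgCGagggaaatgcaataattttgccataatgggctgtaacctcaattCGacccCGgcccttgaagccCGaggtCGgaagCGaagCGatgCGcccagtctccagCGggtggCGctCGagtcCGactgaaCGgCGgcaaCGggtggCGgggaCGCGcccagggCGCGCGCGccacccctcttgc
Hoxb4: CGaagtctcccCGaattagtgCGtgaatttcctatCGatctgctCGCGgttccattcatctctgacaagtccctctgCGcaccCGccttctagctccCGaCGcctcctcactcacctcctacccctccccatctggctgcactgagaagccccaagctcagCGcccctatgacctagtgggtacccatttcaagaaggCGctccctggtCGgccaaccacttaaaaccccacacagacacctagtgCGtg
Hoxb8: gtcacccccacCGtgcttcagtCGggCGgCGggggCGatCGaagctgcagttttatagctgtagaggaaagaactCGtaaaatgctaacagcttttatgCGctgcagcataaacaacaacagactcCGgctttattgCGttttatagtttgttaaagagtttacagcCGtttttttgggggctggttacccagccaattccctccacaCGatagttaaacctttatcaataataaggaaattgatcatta
Hoxd9: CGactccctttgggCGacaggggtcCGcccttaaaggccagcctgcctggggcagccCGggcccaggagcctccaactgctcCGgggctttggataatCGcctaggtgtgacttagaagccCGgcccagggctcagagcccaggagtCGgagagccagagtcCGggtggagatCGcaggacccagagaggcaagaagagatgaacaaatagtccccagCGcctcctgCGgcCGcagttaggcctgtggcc
The windows held 28 CG dinucleotides before Hoxa5, 14 before Hoxb4, 12 before Hoxb8 and 13 before Hoxd9. Over the 22 members with a window the number ran from 2 to 35 with a median of 12.5, beside a median of 6 over all 27025 genes with a window. The median was 12 for paralogs 1 to 3, 10 for paralogs 4 to 8 and 13 for paralogs 9 to 13. The 17 members without a window include Hoxb2, Hoxb3, Hoxb5, Hoxb6, Hoxb7, Hoxc6, Hoxc8 and Hoxc9, so these medians leave out many members with high counts. A link between the number of CG dinucleotides and RNA level was not tested. TTTATG, a core of sites bound by Cdx factors, was searched on both strands and counted without overlap. It occurred in the windows of Hoxa7, Hoxb8 (2 matches, 1 of them next to a CG), Hoxd3, Hoxd4 and Hoxd11, which is 22.7% of the members with 1 window counted each, beside 11.1% of all genes. A match of letters is not a bound site.

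All Hox members together gave 11589 UMIs (308.8 CPM) in the WT library and 2487 UMIs (74.2 CPM) in the TKO library, a level 4.16-fold higher in the former (interval 3.98 to 4.35). At least 1 UMI was counted for 35 members in the WT and for 32 in the TKO library. Of the 39 members, 33 had at least 10 UMIs over both libraries and 6 did not. With 0.5 added to each count, 24 of the 33 (72.7%) were at least 2-fold lower in the TKO library. Of all 15344 genes with at least 10 UMIs, 12.3% were. Another 5 (15.2%) were at least 2-fold higher, a share near the 13.5% of all genes. The median log2 ratio of TKO to WT over the 33 members was -2.36, and over all genes it was 0.14. The 5 higher members were Hoxa2, Hoxa3, Hoxa4, Hoxa5 and Hoxb1, and Hoxa7, Hoxc13 and Hoxd1 were among the 4 that lay within 2-fold. The 6 members below 10 UMIs were Hoxa6, Hoxc12 and Hoxd12, which had no UMI in either library, Hoxb13 with 1 UMI in each, Hoxd3 with 2 UMIs in the WT library and Hoxc11 with 6 and 1.

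**Figure D1:**
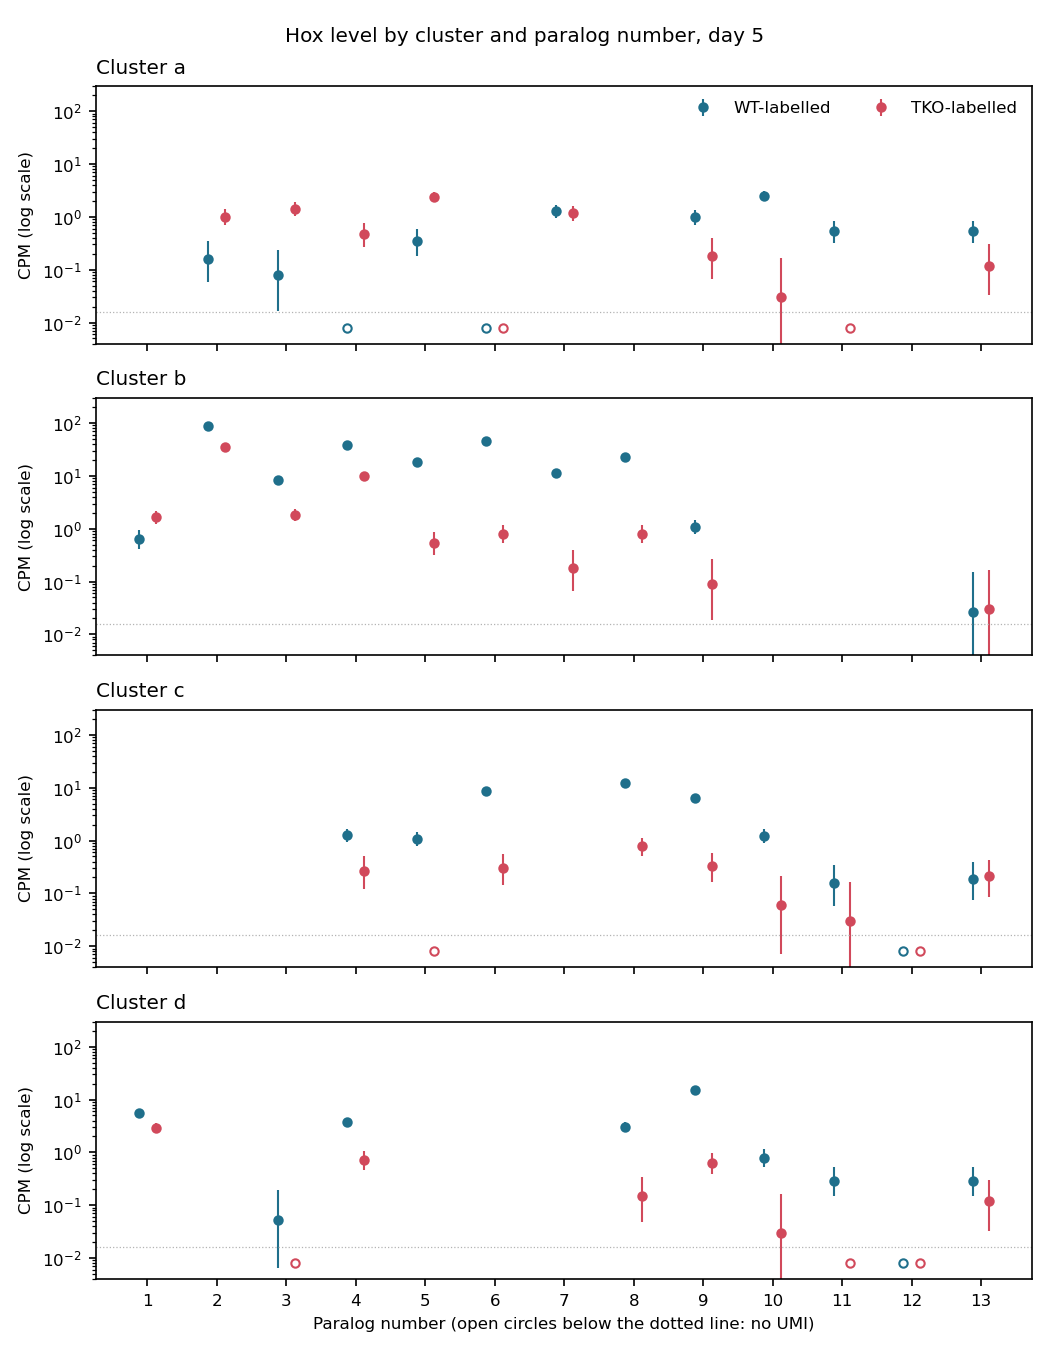
Level of each Hox member in CPM (log axis) against paralog number, 1 panel per cluster, with exact Poisson 95% intervals; open circles under the dotted line have no UMI and their height has no meaning. One member is not shown, and the WT points lie above the TKO ones from Hoxb2 to Hoxb9 and from Hoxc4 to Hoxc10, and below them from Hoxa2 to Hoxa5.

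Hoxb1 and Hoxd1, of the first paralog group, lay on opposite sides of equal levels. Hoxb1, which specifies a hindbrain segment, had 24 UMIs in the WT and 55 in the TKO library and was 2.57-fold higher in the latter (1.56 to 4.34). Hoxd1 had 209 and 98 UMIs, a ratio of TKO to WT of 0.525 (0.409 to 0.671).

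From Hoxb2 to Hoxb4 the genes of cluster b were lower in the TKO library, unlike Hoxb1. Hoxb2, which acts in the hindbrain and neural crest, was counted at 86.3 CPM in the WT and 34.6 CPM in the TKO library, 2.50-fold higher in the former (2.33 to 2.67). Hoxb3 stood at 8.39 and 1.85 CPM, a ratio of TKO to WT of 0.220 (0.165 to 0.290). Hoxb4, known for its role in cervical patterning and blood progenitors, stood at 38.8 and 10.1 CPM, a ratio of 0.260 (0.231 to 0.293). The ratio of TKO to WT thus lay between 0.2 and 0.5 for these cluster b genes, while the neighbouring genes of cluster a had ratios above 1.

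Hoxa2 to Hoxa5 of cluster a had the reverse order of libraries. Hoxa2, which patterns the second pharyngeal arch, had 6 UMIs in the WT and 34 in the TKO library, 6.35-fold higher in the latter (2.63 to 18.5). Hoxa3, needed for the third arch, had 3 and 48 UMIs, 17.9-fold higher (5.78 to 89.96). Hoxa4 had no UMI and 16 UMIs, at least 5.97-fold higher. Hoxa5, known for its part in lung and neck development, had 13 and 81 UMIs, 6.98-fold higher (3.86 to 13.7). Together Hoxa2 to Hoxa5 gave 22 UMIs in 18 WT cells and 179 UMIs in 142 TKO cells, 9.11-fold higher (5.84 to 14.9), so the TKO signal was spread over many cells. They are the 4 members of cluster a that were at least 2-fold higher, so the summed ratio restates that choice and is no separate support. The 4 are adjacent, and Hoxa3 overlaps Hoxa4 and Hoxa5 in the annotation.

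Hoxa7 had like levels, at 48 and 40 UMIs. From Hoxa9 on, cluster a turned to lower levels in the TKO library. Hoxa9, known from blood and limb patterning, had 37 and 6 UMIs, a ratio of TKO to WT of 0.182 (0.0627 to 0.434). Hoxa10, a uterine and hindlimb regulator, had 95 UMIs and 1 UMI, 84.8-fold higher in the WT library (14.9 to 3385). Hoxa11 had 20 UMIs and none, at least 5.95-fold higher, and Hoxa13, a gene of digits and hindgut, had 20 and 4 UMIs, 4.46-fold higher (1.5 to 18.0). The cluster thus joined 4 members that were at least 2-fold higher with 4 that were at least 2-fold lower. Of all genes with at least 10 UMIs, 13.5% were higher and 12.3% lower by this limit.

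The middle genes of cluster b, which mark trunk levels, were lower in the TKO library by 12.2-fold to 63.4-fold. Hoxb5 was counted at 18.3 CPM in the WT and 0.537 CPM in the TKO library, 34.0-fold higher in the former (21.4 to 57.8). Hoxb6 stood at 45.3 and 0.806 CPM, 56.2-fold higher (38.5 to 85.6). Hoxb7 stood at 11.4 and 0.179 CPM, 63.4-fold higher (28.9 to 174). Hoxb8, which acts in spinal cord and myeloid cells, stood at 22.5 and 0.806 CPM, 27.9-fold higher (19.0 to 42.6), and Hoxb9 had 41 and 3 UMIs, 12.2-fold higher (3.89 to 61.6). Between Hoxb4 and Hoxb5 the WT to TKO ratio went from 3.84 to 34.0, and the intervals of these neighbours did not overlap.

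Cluster c has no member below paralog 4 and patterns the trunk. Its genes gave 1171 UMIs in the WT and 66 in the TKO library, a ratio of TKO to WT of 0.0631 (0.0485 to 0.0809). Hoxc6, a thoracic gene, had 325 and 10 UMIs, Hoxc8 had 457 and 26, and Hoxc9 had 242 and 11. The WT to TKO ratios were 29.0 (15.6 to 61.1) for Hoxc6, 15.7 (10.6 to 24.3) for Hoxc8 and 19.6 (10.8 to 39.9) for Hoxc9. Hoxc4 had 47 and 9 UMIs, Hoxc5 had 41 and none, and Hoxc10, a hindlimb and lumbar gene, had 46 and 2. All 6 were at least 2-fold lower in the TKO library, beside 12.3% of all genes with at least 10 UMIs. Hoxc13, a gene of hair and tail, had 7 UMIs in each library.

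Cluster d, whose posterior genes pattern limbs and genital buds, had 1090 and 153 UMIs, a ratio of 0.157 (0.132 to 0.186). Hoxd4 had 139 and 24 UMIs, Hoxd8 had 116 and 5, and Hoxd9 had 572 and 21. The WT to TKO ratios were 5.17 (3.34 to 8.34) for Hoxd4, 20.7 (8.63 to 65.0) for Hoxd8 and 24.3 (15.8 to 39.6) for Hoxd9. Hoxd10 had 30 UMIs and 1 UMI, Hoxd11 had 11 and none, and Hoxd13 had 11 and 4, a ratio of TKO to WT of 0.407 (0.0946 to 1.38). The interval of Hoxd13 includes 1, so its difference was not detectable at this depth.

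With UMIs summed over clusters, the ratio of TKO to WT went down from paralog 2 to paralog 6 and followed no order after that. It was 0.412 for paralog 2, 0.385 for paralog 3, 0.264 for paralog 4 and 0.15 for paralog 5. From paralog 6 on it was 0.0205, 0.109, 0.0459, 0.0515, 0.0262 and 0.0303 up to paralog 11, with 1 TKO UMI in the last. Paralog 13 stood at 0.460 (0.240 to 0.842) with 39 and 16 UMIs. Paralogs 1 to 3 together had a ratio of 0.485 (0.459 to 0.513), paralogs 4 to 8 of 0.112 (0.103 to 0.121) and paralogs 9 to 13 of 0.0610 (0.0464 to 0.0788). As shares of all Hox UMIs, paralogs 1 to 3 made up 35.8% in the WT and 72.3% in the TKO library, and paralogs 4 to 8 made up 54.3% and 25.2%. Only 9.83% and 2.49% came from paralogs 9 to 13. Most WT UMIs of paralogs 2 to 4 were of cluster b, so these sums mainly follow its genes. Hoxb2 gave 3238 of 3244 WT UMIs of paralog 2, Hoxb3 315 of 320 of paralog 3 and Hoxb4 1455 of 1641 of paralog 4. Counted as members with at least 10 UMIs, 3 of 7 in paralogs 1 to 3 were at least 2-fold higher in the TKO library and 2 lower. Of all genes, 13.5% were higher and 12.3% lower.

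**Figure D2:**
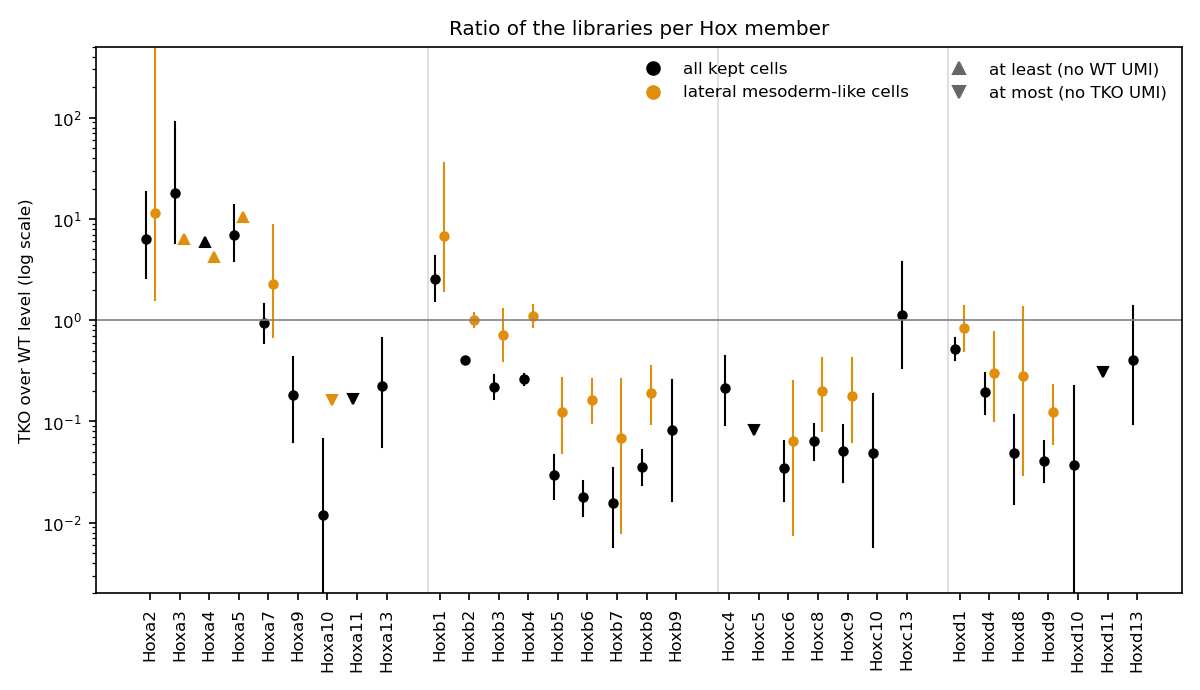
Ratio of the TKO to the WT level (log axis) for the reported members with at least 10 UMIs over both libraries, in all kept cells (black) and, where those cells held at least 10 UMIs, in lateral mesoderm-like cells (orange), with exact 95% intervals that end at the axis limits; triangles are bounds where 1 library had no UMI. In lateral mesoderm-like cells Hoxb2 (1.01) and Hoxb4 (1.09) lie at 1 while Hoxb5 to Hoxb8 lie at 0.190 or lower.

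To compare cells at equal depth, each was thinned to 4000 UMIs, which left out 373 WT and 190 TKO cells with fewer. Among the 4019 and 3007 thinned cells, 60.7% of WT (59.2 to 62.3) and 20.6% of TKO cells had a UMI of at least 1 Hox member. Without thinning these shares were 74.2% and 30.6%. At least 3 members were found in 11.3% and 1.20% of thinned cells. Hoxb2 alone had a UMI in 26.3% and 11.1% of thinned cells. In definitive endoderm-like and pluripotent-like cells, taken here as background, the shares were 0.901% (1 of 111 cells) and 1.13% (10 of 882). Those background cells had medians of 7652.5 and 11794 UMIs before thinning, and the thinned cells as a whole had medians of 8175 and 10005.

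Each thinned cell was then placed by the highest paralog number it held. Cells that stopped at paralogs 1 to 3 were 14.8% of the WT and 13.1% of the TKO library. Cells that reached paralogs 4 to 8 were 36.8% and 6.82%, and cells that reached paralogs 9 to 13 were 9.13% and 0.599%. The libraries were thus close in cells whose Hox UMIs came from anterior members alone and far apart in cells with middle and posterior members. The first of these depends on depth: thinned to 2500 UMIs the anterior-only shares were 13.5% and 9.67%, and without thinning 12.7% and 17.6%. At this depth a cell with no UMI of a member may still express it.

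**Figure D3:**
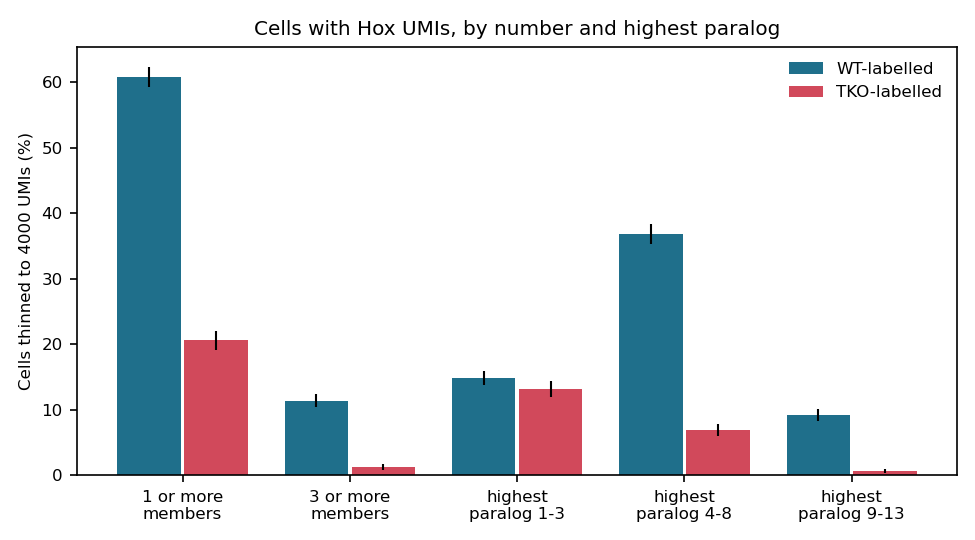
Percent of cells, each thinned to 4000 UMIs, with UMIs of at least 1 or 3 Hox members and by the highest paralog number found (bars from 0; error bars are exact 95% binomial intervals). Cells that stop at paralogs 1 to 3 are 14.8% and 13.1%, while cells that reach paralogs 9 to 13 are 9.13% in the WT and 0.599% in the TKO library.

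Cells were sorted into kinds by counting UMIs of fixed marker genes, and the kinds were unequally filled. Lateral mesoderm-like cells were taken only from cells past no other gate, since a cell past the lateral gate and 1 other was counted in the other kind, and cells past several of the other gates were kept apart. Matrix mesenchyme-like cells, with collagen and Postn transcripts, numbered 1920 in the WT and 3 in the TKO library, and erythroid-like cells 386 and 10. Definitive endoderm-like cells numbered 92 and 722, and cardiomyocyte-like cells 13 and 128. In the whole libraries, a different mix of cells and a different level per cell cannot be told apart. Lateral mesoderm-like cells, marked by Hand1, Hand2, Foxf1 and their kin, numbered 481 and 284 and were the Hox-rich kind with at least 50 cells in both.

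In lateral mesoderm-like cells all Hox members gave 352 CPM in the WT and 248 CPM in the TKO library, a ratio of TKO to WT of 0.704 (0.643 to 0.769). Hoxb2 stood at 104 CPM in both, a ratio of 1.01 (0.867 to 1.17), and Hoxb4 at 36.2 and 39.7 CPM, a ratio of 1.09 (0.853 to 1.40). When all cells past the lateral gate were counted, 2263 in the WT and 328 in the TKO library, Hoxb4 was at 0.769 (0.638 to 0.921) and Hoxb2 at 0.933 (0.834 to 1.04), so the side of 1 on which Hoxb4 lies depends on which cells are counted. Hoxb1 had 3 and 16 UMIs. Within this kind paralogs 1 to 3 together had a ratio of 1.23 (1.09 to 1.39). Hoxa2 to Hoxa5, a sum set by the ratios in all cells, these included, gave 1 UMI in the WT and 59 in the TKO cells. Their ratio was 74.5 (12.9 to 2994). Of these, Hoxa5 gave 25 of the TKO UMIs and none of the WT ones.

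Hoxb5 to Hoxb9, cluster c and paralogs 9 to 13 as sums stayed lower within the same kind. Hoxb5 to Hoxb9 had 346 and 42 UMIs, a ratio of 0.153 (0.109 to 0.212). Hoxb6 stood at 39.3 and 6.45 CPM and Hoxd9 at 28.6 and 3.55 CPM, the latter a ratio of 0.124 (0.0602 to 0.231). Hoxa10 had 23 UMIs and none, at least 6.07-fold higher in the WT cells. Paralogs 9 to 13 together had a ratio of 0.135 (0.0849 to 0.207) and cluster c of 0.138 (0.0782 to 0.228). Of the 22 members with at least 10 UMIs in these cells, 11 were at least 2-fold lower in the TKO library, beside 8.1% of all genes, and 7 were at least 2-fold higher, beside 7.31%. Among the 7 were the middle members Hoxa4, Hoxa5 and Hoxa7. For Hoxa7, 5 of 9 TKO UMIs came from 1 cell, and without it the ratio was 1.01 (0.201 to 4.71), under the 2-fold limit.

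The lateral mesoderm-like cells of the 2 libraries were not alike in their counts of other genes. Erythroid markers summed to 448 CPM in the WT (all 10 with UMIs) and 13.2 CPM in the TKO cells (8 of 10, Alas2 and Slc4a1 at 0), and mesothelium markers to 123 and 35.5 CPM. Definitive endoderm markers summed to 9.95 and 50.9 CPM and pluripotent markers to 6.89 and 39.7 CPM, both higher in the TKO cells. All 8 matrix mesenchyme markers had UMIs in the WT cells, at a summed 982 CPM, and 7 of 8 (Wisp1 at 0) in the TKO cells, at 61.9 CPM. Among the 117 WT and 269 TKO cells with UMIs of at most 1 such marker, a comparison added after these values were seen, the ratio was 1.06 (0.837 to 1.35) for Hoxb2 and 1.71 (1.08 to 2.83) for Hoxb4. It was 0.204 (0.127 to 0.321) for Hoxb5 to Hoxb9, 0.132 (0.0755 to 0.223) for paralogs 9 to 13 and 18.6 (3.21 to 747) for Hoxa2 to Hoxa5. Paralogs 4 to 8 as a whole were at 0.735 (0.570 to 0.954) there, against 0.458 (0.391 to 0.534) in all lateral mesoderm-like cells. The part of these other genes in the remaining differences was not tested.

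Endoderm had little Hox RNA in both libraries. Definitive endoderm-like cells gave 11 UMIs (13.6 CPM) in the WT and 144 UMIs (17.0 CPM) in the TKO library, a ratio of 1.25 (0.676 to 2.55). Of 4 members with at least 10 UMIs there, none was at least 2-fold lower, beside 9.26% of all genes, and 2, among them Hoxa5, were at least 2-fold higher, beside 13.7%. With 11 WT UMIs, only large differences could be seen in this kind.

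**Figure D4:**
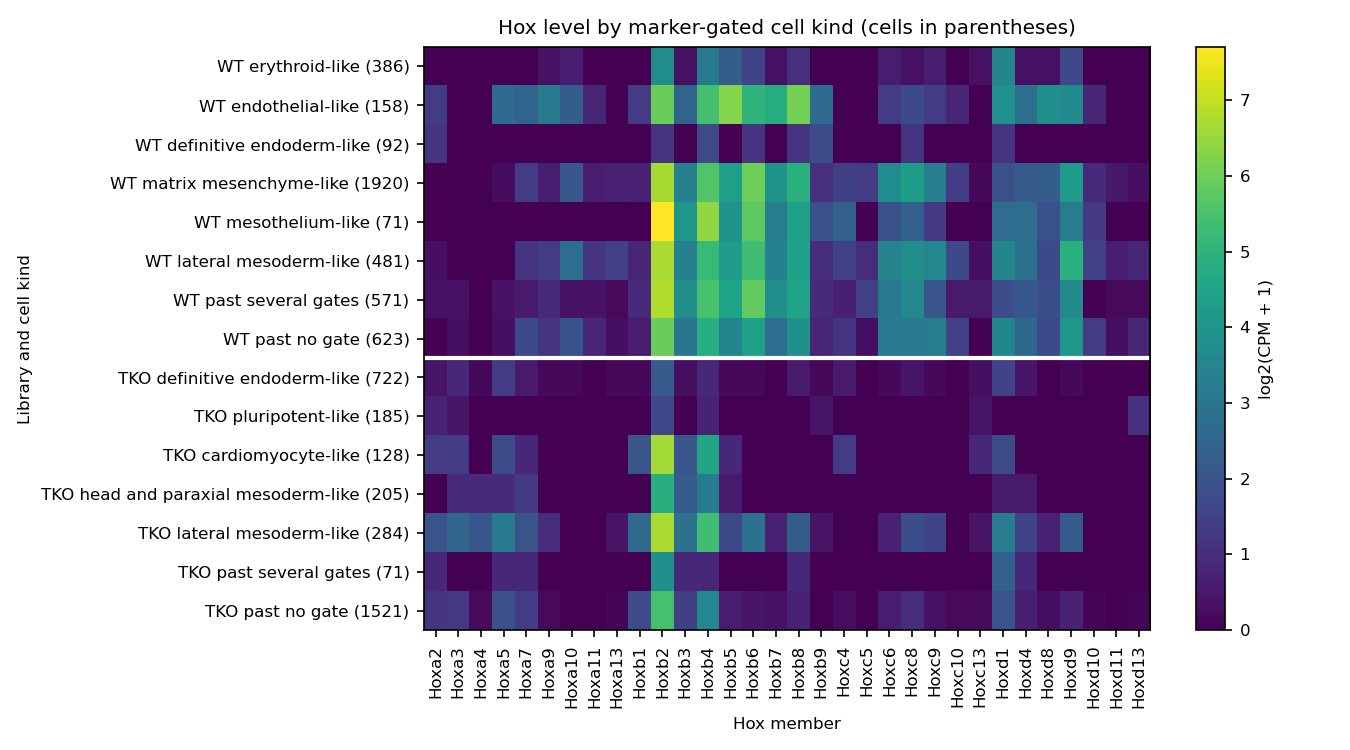
Level of the reported Hox members with at least 10 UMIs over both libraries, as log2(CPM + 1) in colour, in each cell kind of at least 50 cells, with WT kinds above the white line and TKO kinds below. Hoxb5 and Hoxb8 are bright in WT endothelial-like cells, cluster c genes in the mesenchyme and lateral kinds, and Hoxb2 and Hoxb4 in TKO cardiomyocyte-like and lateral mesoderm-like cells.

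Within the WT library, cell kinds with similar Hox totals differed in which members they held. Endothelial-like cells (158 cells) gave 399 CPM of Hox RNA and matrix mesenchyme-like cells 378 CPM, a ratio of 1.05 (0.962 to 1.15). Hoxb5, a gene used to mark long-term blood stem cells, stood at 76.6 CPM in the endothelial-like and 19.5 CPM in the matrix mesenchyme-like cells, 3.94-fold higher (3.11 to 4.95). Hoxb8 was 2.29-fold higher there (1.80 to 2.89), Hoxd8 3.42-fold higher (1.88 to 5.94) and Hoxb9, on 7 and 17 UMIs, 5.06-fold higher (1.77 to 12.8). Hoxb6 was lower, at 30.9 and 63.1 CPM, so adjacent genes of 1 cluster went in opposite directions between these kinds. Cluster c was nearly absent from the endothelial-like cells: Hoxc6 had 2 UMIs there and 198 in the matrix mesenchyme-like cells (ratio 0.124, 0.0149 to 0.454), and Hoxc8 had 3 and 294 (ratio 0.125, 0.0257 to 0.370).

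Mesothelium-like cells (71 cells), marked by Wt1 and Upk3b, had a more anterior set. Hoxb2 reached 207 CPM and Hoxb4 84.4 CPM, 2.07-fold (1.74 to 2.46) and 1.75-fold (1.32 to 2.28) the matrix mesenchyme-like levels. Paralogs 9 to 13 were lower, at 14.3 against 36.6 CPM (ratio 0.391, 0.186 to 0.724), and Hoxc8 had 3 UMIs. Lateral mesoderm-like cells went the other way, with paralogs 9 to 13 at 57.2 CPM, 1.56-fold the matrix mesenchyme-like level (1.33 to 1.83). Hoxd9 was 1.57-fold (1.25 to 1.96) and Hoxa10 1.79-fold (1.05 to 2.98) higher in them.

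Erythroid-like cells gave 44.0 CPM of Hox RNA, a ratio of 0.116 (0.0989 to 0.136) to the matrix mesenchyme-like cells. Hoxd1 was the exception, at 10.4 CPM in the erythroid-like and 2.77 CPM in the matrix mesenchyme-like cells. Its 38 UMIs there came from 8 of 386 cells, and 27 of them from 2 cells with 14 and 13. In lateral mesoderm-like cells of the same library the 41 UMIs of Hoxd1 came from 35 cells, with at most 4 in a cell. The erythroid-like level of Hoxd1 therefore rests on a pair of cells.

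Among TKO kinds, cardiomyocyte-like cells (128 cells) were compared with the lateral mesoderm-like cells. Hoxb2 stood at 97.5 against 104 CPM (ratio 0.933, 0.751 to 1.15). Hoxb4 was lower, at 22.4 against 39.7 CPM (ratio 0.564, 0.360 to 0.856), Hoxb6 had no UMI, and paralogs 9 to 13 had 1. The 13 WT cardiomyocyte-like cells were too few to compare and gave Hoxb2 at 95.6 CPM from 9 UMIs. Head and paraxial mesoderm-like cells (205 cells), found in the TKO library alone, had Hoxb2 at 28.0 CPM and Hoxb4 at 7.95 CPM, ratios of 0.269 (0.2 to 0.355) and 0.2 (0.113 to 0.334) to the lateral mesoderm-like cells.

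Pitx1, a hindlimb regulator, and Cdx2, which acts on posterior Hox genes, divided the cells by paralog class. In the WT library the 944 cells with a Pitx1 UMI had paralogs 9 to 13 at 87.2 CPM, 7.11-fold the level of the other cells (6.26 to 8.09), and paralogs 1 to 3 at a ratio of 0.702 (0.648 to 0.759). Hoxa10 was 9.29-fold (5.78 to 15.4), Hoxc9 8.74-fold (6.53 to 11.8) and Hoxd9 5.71-fold (4.80 to 6.81) higher in those cells, 3 genes from 3 clusters. The 471 cells with a Cdx2 UMI had paralogs 9 to 13 at 92.0 CPM, 4.41-fold higher (3.91 to 4.98). In the TKO library 155 cells had a Cdx2 UMI, and paralogs 9 to 13 were at 18.8 CPM in them and 0.823 CPM in the rest, 22.8-fold higher (13.4 to 39.3). Cells with a UMI of a gene tend to be deeper, but CPM is taken relative to depth. The divisions pooled cells of all kinds, so a difference between kinds and a difference within a kind cannot be told apart.

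The cardiac and anterior genes gave other divisions, again over cells of all kinds, and Hand1 is itself a marker of the lateral gate. Cells with a UMI of Hand1, a lateral mesoderm and heart factor, had 354 CPM of Hox RNA in the WT library (3.14-fold the rest, 2.92 to 3.38) and 232 CPM in the TKO library (4.09-fold, 3.75 to 4.46). Isl1, a gene of second heart field progenitors and endoderm, gave a ratio of 0.664 (0.609 to 0.723) in the WT and 1.03 (0.95 to 1.11) in the TKO library. The 1124 TKO cells with a UMI of Otx2, a head organiser gene, had 14.7 CPM, a ratio of 0.127 (0.109 to 0.147) to the rest. The 39 TKO cells with a UMI of Aldh1a2, which makes retinoic acid, had Hoxa2 to Hoxa5 at 34.8 CPM, 7.06-fold the rest (3.94 to 11.8), from 16 UMIs.

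**Figure D5:**
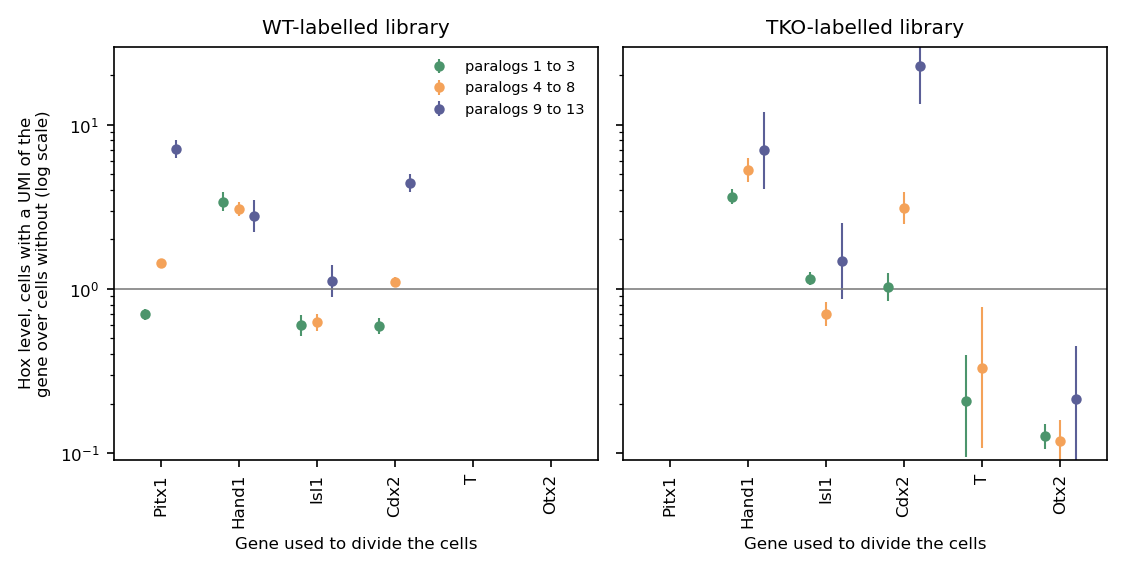
Level of 3 Hox position classes in cells with a UMI of the gene named on the x axis, divided by the level in cells without (log axis), for genes found in at least 50 cells of the library, with exact 95% intervals that end at the axis limits. Only paralogs 9 to 13 stand well above 1 for Pitx1 (7.11) and Cdx2 (4.41) in the WT library, and Otx2 lies below 1 for all 3 classes in the TKO library. Cells of all kinds were pooled.

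The posterior UMIs of the TKO library were held by few cells. Its 62 UMIs of paralogs 9 to 13 came from 36 cells, and 3 of them had 12, 8 and 6, whereas the 1139 WT UMIs came from 644 cells with at most 12 in a cell. These 3 cells, picked after their values were seen, had 20, 24 and 19 Hox UMIs from 7, 10 and 6 members. All 3 held Hoxa7, Hoxb8, Hoxc8, Hoxc9 and Hoxd9 together with Cdx2, and none had a UMI of a matrix mesenchyme marker or of Hoxb2. They carried 10 of the 11 Hoxc9 UMIs and 5 of the 6 Hoxa9 UMIs, leaving 1 of each.

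Results on these genes moved when the 3 cells were left out. The ratio of TKO to WT went to 0.0354 (0.0247 to 0.0493) for paralogs 9 to 13 and to 0.0345 (0.0240 to 0.0480) for cluster c. In lateral mesoderm-like cells, where 1 of the 3 lay, paralogs 9 to 13 went to 0.0679 (0.0346 to 0.121). The Cdx2 division of the TKO cells went to 6.42-fold (2.76 to 13.8). Hoxa7 went to 0.677 (0.412 to 1.10), with 29 UMIs left. Only TKO cells rich in these genes were left out, so the ratios of TKO to WT could only fall and their direction is no check. The Cdx2 division stayed above 1, and Hoxa7, at 0.934 with the cells, had an interval that includes 1 in both cases.

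Pairs of members were counted in the same thinned cells, as the number of cells with both over the number expected if the 2 were unrelated. In the WT library the median over 27 pairs within a cluster was 1.5 and over 64 pairs between clusters 1.14. Hoxc6 and Hoxc8 met in 26 cells where 4.99 were expected, 5.21 times as many, and Hoxc8 and Hoxc9 in 16, 4.38 times as many. Posterior genes also met across clusters, with Hoxc9 and Hoxd9 in 16 cells, 2.94 times the number for unrelated genes. Hoxb2 and Hoxc8 met less often, in 21 cells where 40.2 were expected. Hoxb4 and Hoxd4, paralogs of the same number, met in 1 cell where 7.03 were expected. Within matrix mesenchyme-like cells the medians were 1.11 for 22 pairs within and 0.942 for 33 pairs between clusters. These medians lie nearer to the unrelated count, but they leave out the pairs of Hoxc9, Hoxd1 and Hoxd4. The 2 sets of medians are therefore not over the same pairs. In the TKO library Hoxb2 with Hoxb4 stood at 3.17.

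Known cofactors and inputs of the Hox clusters were read from lists fixed for this purpose, by the same 2-fold rule. Of all genes, 13.5% were higher and 12.3% lower in the TKO library by this rule. Of 9 TALE cofactors, 2 were higher, Meis1 at 10.2 and 32.4 CPM and Pbx4 at 1.31 and 6.42 CPM, and none was lower. The median log2 ratio of the TALE list was 0.29. Of 10 Cdx genes and posterior signals with at least 10 UMIs, 7 were higher and 1 lower, beside the same 13.5% and 12.3%. T, the primitive streak factor, stood at 0.480 and 10.1 CPM and Fgf8 at 3.38 and 33.0 CPM, while Nkx1-2, a marker of axial progenitors, had 88 and 2 UMIs. Cdx2 itself stood at 20.6 and 10.5 CPM, a ratio just short of the 2-fold limit. The median log2 ratio of the Cdx and posterior signal list was 1.55, beside 0.14 for all genes.

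Of 15 retinoic acid genes, 6 were higher and none lower in the TKO library, beside 13.5% and 12.3% of all genes, and the list's median log2 ratio was 0.17. Rarb, a receptor gene, stood at 2.72 and 25.8 CPM, Cyp26a1, which degrades retinoic acid, at 5.57 and 51.0 CPM, and Crabp2, which carries it to the receptors, at 12.9 and 68.2 CPM. Aldh1a2 had 22 and 53 UMIs. Of 15 Polycomb genes, 2 were higher (Cbx7 at 4.82 and 15.7 CPM, Jarid2 at 32.0 and 85.7 CPM) and none lower, a share of higher genes near that of all genes, with a median of 0.49. None of 11 Trithorax and MLL genes or of 7 genes of chromatin boundaries changed by 2-fold. Of 5 hindbrain inputs, 3 were higher, among them Egr2 at 7.22 and 17.0 CPM, and Fgf3 was lower. Of 2 ParaHox genes with enough UMIs, 1 was higher, Pdx1 with 4 and 8 UMIs. These counts also stand beside 13.5% of all genes higher and 12.3% lower.

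Of 15 genes that flank the clusters and had at least 10 UMIs, 12 lay within 2-fold, 2 were higher (Snx10 and Skap2, beside cluster a) and 1 was lower, shares near those of all genes (13.5% higher and 12.3% lower). The lower one was Skap1, beside cluster b, with 67 UMIs in the WT and 2 in the TKO library. Skap2 had 306 and 581 UMIs and Snx10 had 498 and 1149, the same direction as Hoxa2 to Hoxa5 of cluster a.

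By the pattern over 15 groups of cells (kinds of at least 50 cells in either library, on log2(CPM + 1)), the genes most like the summed Hox level among 12650 searched were Ctso, a lysosomal protease gene, with a Pearson coefficient of 0.960, Hlx, a homeobox gene of visceral mesenchyme, with 0.956, Asb4 with 0.939 and Kif21b with 0.932. Rsu1 (0.931), Ppic (0.927), Camk4 (0.920) and Copz2 (0.913) followed. Ctso stood at 33.2 CPM in the WT and 6.57 CPM in the TKO library, and Hlx at 21.4 and 2.78 CPM. Groups of the same library share its preparation and depth, so the coefficients describe these groups only.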

How the data were processed

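For 2 libraries the authors deposited tables of raw whole-number counts, which were read as UMIs. Seurat 3 and mm10 appear in the submitters' processing notes, and the aligner and counting tool were not stated in the sources used here. The header of the TKO table named 3224 barcodes over 3223 values, so cells were read by position, as were gene rows, of which 116 names differed in their ending. Cells with over 15% mitochondrial UMIs were left out (3 and 26), and the minimums of 500 genes and 1000 UMIs removed none. Counts were summed over cells with Python 3.11.15, numpy 2.4.6 and scipy 1.17.1, and ratios have exact binomial intervals, CPM exact Poisson intervals and shares Clopper-Pearson intervals. A count of 0 was set to 3 counts for a bound. Kinds needed 3 to 5 of their markers, and erythroid-like cells also a globin share of 2%. All members with at least 10 UMIs over both libraries were named except 1 that is not reported here, though sums over members include it. Members, markers and lists were chosen with earlier results of these data known. Ratios were tested on simulated counts, and thinning was checked on WT cells for the depth it left.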

Additional observations from a re-analysis of the deposited data

Results flagged for a closer look

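Paralogs 1 to 3 gave ratios of TKO to WT on either side of 1 in different groups of cells. The ratio was 1.23 in lateral mesoderm-like cells, 0.197 in cells past several gates and 0.710 in cells past no gate. The difference between these groups was not tested, and the last 2 groups are mixtures rather than kinds.

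A signal above the WT level also appeared in noncoding genes of cluster a that the comparisons of Hox members do not use. Hoxaas3, antisense to the Hoxa3 to Hoxa6 stretch, had 7 UMIs in the WT and 21 in the TKO library, a ratio of 3.36. Hotairm1 had 410 and 475 UMIs, a ratio of 1.30.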

How the results depend on the processing

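No paired analysis was possible because each genotype had 1 single-cell library, and for the same reason no replicate could be left out. Of 109 comparisons of an alternative with a main value, 70 stayed within the main interval (for counts of members, within 1.5 times) and 39 left it. No ratio whose main interval excluded 1 changed direction. The number of members at least 2-fold lower ran from 22 to 26 and of those higher from 4 to 5. With the median of all genes set to no change, the ratio of TKO to WT was 0.218 for all Hox, 0.198 for cluster b, 0.441 for paralogs 1 to 3 and 0.101 for paralogs 4 to 8. Without erythroid-like cells these were 0.221, 0.199, 0.449 and 0.102, and as a mean over cells of each cell's share 0.259, 0.237, 0.525 and 0.121. Without the 3 TKO cells, cluster c was at 0.0345 and paralogs 9 to 13 at 0.0354. This alternative was chosen after seeing the data and could only lower these ratios. The shares of cells moved with depth by construction. Thinned to 2500 UMIs, WT shares were 48.02% with at least 1 and 4.43% with at least 3 members, and 13.5%, 28.1% and 6.45% by highest paralog (1 to 3, 4 to 8, 9 to 13), and TKO shares 13.8%, 0.626%, 9.67%, 3.75% and 0.344%. Without thinning the WT shares were 74.2%, 31.1%, 12.7%, 46.8% and 14.7%, and the TKO ones 30.6%, 5.19%, 17.6%, 11.9% and 1.13%, so the order of the libraries for cells that stop at paralogs 1 to 3 depends on depth. In lateral mesoderm-like cells, counting cells past several gates in each kind gave 0.618 for all Hox, 0.317 for paralogs 4 to 8, 0.0926 for Hoxb5 to Hoxb9 and, on the other side of 1 from its main value, 0.769 for Hoxb4. With at most 1 matrix mesenchyme marker, also chosen after seeing the data, all Hox were at 0.845 and paralogs 4 to 8 at 0.735. The cause was not tested in these cases. Members with few UMIs, such as Hoxc13, Hoxd13 and Hoxa13, are limited by depth.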

Other observations

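Hoxb5os, which overlaps Hoxb5 and Hoxb6, had 475 UMIs in the WT and 3 in the TKO library. Hoxb3os, over Hoxb2 and Hoxb3, had 431 and 317, a ratio of 0.824 (0.710 to 0.955), while both of those genes were at least 2-fold lower in the TKO library. Hoxd3os1 had 72 and 6 UMIs. Hottip had no UMI in either library and Hotair had 1 in the WT one. Since the strand used in counting is not given in the sources used here, reads of a gene and its antisense partner could not be told apart.

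The genes whose pattern over the 15 groups of cells was most like that of Hoxa2 to Hoxa5 were Mob4, with a Pearson coefficient of 0.862, and Nr2f2, a nuclear receptor gene of atrial and venous cells, with 0.857. Nr2f2 stood at 7.67 CPM in the WT and 29.4 CPM in the TKO library, with its highest level, 55.7 CPM, in WT endothelial-like cells.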
